A study of Mus musculus with 12 samples.

Results

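DNA methylation was examined at the CpG islands of Sox2, Klf4, Myc and Pou5f1, the genes of the core reprogramming factors, in 4 mouse ES cell lines that differ in their mtDNA. The members were all non-control probes of an Agilent mouse CpG island array that lay in 1 of 4 windows around these genes. On mouse build mm9 the windows were chr17:35638000-35652000 for Pou5f1, chr3:34540000-34560000 for Sox2, chr4:55530000-55550000 for Klf4 and chr15:61810000-61830000 for Myc. They held 73 of the 88737 probes, 26 at Sox2, 24 at Klf4 and 23 at Myc. The Pou5f1 window held 0 probes, and the nearest ones lay 30952 bp before it and 1618 bp after it, so that Pou5f1 has no value here.

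Pou5f1 (also called Oct4), Sox2, Klf4 and Myc encode transcription factors. The first pair sustain the pluripotent state of ES cells, Klf4 is one of the factors downstream of LIF signalling, and Myc drives growth and proliferation. Introduced together, they return differentiated cells to a pluripotent state. CpG islands are stretches rich in the dinucleotide CG that lie over many gene starts. In most cells they carry little 5-methylcytosine (5mC), and dense methylation of a promoter island goes with a silent gene.

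All 4 lines carried the chromosomes of CC9.3.1, a line derived from a 129SvEv embryo, and were made by fusing enucleated cytoplasts to CC9.3.1 cells depleted of mitochondria. CC9mus held mtDNA of Mus musculus, as the parental line does, and served as the reference. CC9spretus held mtDNA of Mus spretus, CC9dunni that of Mus terricolor (Mus dunni) and CC9pahari that of Mus pahari, and these 3 are called the divergent lines below. Each mtDNA was represented by 1 line, so that mtDNA and line cannot be told apart. The cells were undifferentiated, were grown on mitomycin C-treated fibroblast feeders with LIF, and were moved to feeder-free culture for 48 h before DNA was taken. The array reads DNA from the whole population, and some cells with dense methylation cannot be told apart from many cells with a little. As the assay measures DNA, the cell type could not be checked against expressed markers. No source states whether the 3 replicates of a line were separate cultures, so that p-values measure the spread between these samples, which may be technical.

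In methylated DNA immunoprecipitation (MeDIP), sonicated DNA of 200 to 1000 bp was enriched with an antibody to 5mC. Cy5 marked the enriched fraction (IP) and Cy3 the input, and both were hybridised to 1 array per replicate, 12 in all. Values below are log2(IP/input), with each array centred on the median of its probes, so that 0 is the typical probe of that array and a positive value means more 5mC antibody enrichment than the typical probe. They are relative enrichments and not a percentage of methylated cytosines. Enrichment by a 5mC antibody also depends on the density of CG, and probes respond differently, so that the highest and lowest probes named below describe the array values and not an order of methylation. A line was called hypermethylated at a probe where the mean of its 3 arrays was above 2, a 4-fold ratio, and hypomethylated where it was below −2. The study's methods use a 4-fold cutoff between samples, on values from the authors' own software and together with a Z-score filter, which was not applied here. The cutoff used here compares no samples, as it sets a probe against the typical probe of the same array. Probes called by it are thus not comparable with the study's calls. Differences between lines were tested in limma over all 88737 probes, with Benjamini-Hochberg adjustment over all of them and a threshold of 0.05. The fit took 1 spread for all 4 lines at each probe. An SE or p that involves CC9mus can thus be too small where the CC9mus arrays spread more than the others.

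The promoter sequences of the member genes are shown for the density of CG, the usual site of 5mC in mammalian DNA. RefSeq (GRCm38.p6) gave a promoter for 3 of the 4 genes, and Myc was not matched. Each sequence is the 250 bp just before the gene start, 5′ to 3′ on the strand of the gene, with each CG in capitals. The positions are chr17:35505782-35506031 on the plus strand for Pou5f1 (the first of its 2 listed starts), chr3:34649745-34649994 on the plus strand for Sox2 and chr4:55532476-55532725 on the minus strand for Klf4. These are of another build than the probe positions, and no probe was placed on them.
Pou5f1: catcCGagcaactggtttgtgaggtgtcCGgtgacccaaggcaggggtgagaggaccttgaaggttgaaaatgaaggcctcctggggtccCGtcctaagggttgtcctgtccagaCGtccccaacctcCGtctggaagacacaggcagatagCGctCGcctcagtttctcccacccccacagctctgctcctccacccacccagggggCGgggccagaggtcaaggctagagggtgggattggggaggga
Sox2: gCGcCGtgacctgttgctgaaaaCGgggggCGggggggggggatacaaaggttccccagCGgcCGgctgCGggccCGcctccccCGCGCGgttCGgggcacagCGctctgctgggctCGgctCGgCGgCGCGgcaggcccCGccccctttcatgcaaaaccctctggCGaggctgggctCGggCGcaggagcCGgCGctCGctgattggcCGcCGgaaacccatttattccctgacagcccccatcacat
Klf4: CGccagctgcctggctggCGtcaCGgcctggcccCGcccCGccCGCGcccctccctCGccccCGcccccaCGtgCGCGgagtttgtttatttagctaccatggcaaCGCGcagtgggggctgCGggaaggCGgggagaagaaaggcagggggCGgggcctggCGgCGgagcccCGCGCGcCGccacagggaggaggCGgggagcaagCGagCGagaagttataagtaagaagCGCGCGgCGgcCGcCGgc

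The motif CG reads the same on both strands and 94.6% of the 32851 RefSeq promoters of 300 bp (250 bp before to 50 bp after the start) held at least 1, with a median of 7. Klf4 had 40 in that window and 3.91% of promoters had as many or more. Sox2 had 27, a count that 15.5% of promoters reached. Pou5f1 had 11, which 41.4% of promoters reached, and its other start had 6. Pou5f1, whose window held no probe, thus had the fewest CG of the 3.

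The 73 probes formed 4 of the 14580 islands on the array, where a new island began wherever the next probe lay over 1000 bp away. The Sox2 window held a large island of 21 probes (chr3:34547722-34550298) and a small one of 5 probes (chr3:34540865-34541337), called the upstream island here because it lay before the large one in the direction in which Sox2 is transcribed. Klf4 had 1 island of 24 probes (chr4:55542987-55546200) and Myc 1 island of 23 probes (chr15:61816435-61819738). Probes were 45 to 60 bp long and the median distance from one start to the next was 109 to 127 bp within the islands, less than the length of the sonicated fragments, so that neighbouring probes share DNA. Exons, introns and UTRs were not assigned, as no annotation of build mm9 was at hand. In the RefSeq annotation of GRCm38.p6, Sox2 lies within the longer non-coding gene Sox2ot.

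The arrays differed as a whole, and this bears on what follows. The SD of all centred values was 0.53 on CC9mus replicate 1, 1.85 and 2.01 on CC9mus replicates 2 and 3, and between 1.09 and 1.38 for each array of a divergent line. Over the 73 member probes, too, the SD was lowest on CC9mus replicate 1, at 0.44, and highest on replicates 2 and 3, at 1.69 and 1.57, against 0.68 to 1.13 on the others. The 3 CC9mus arrays were scanned in the later of 2 scan periods, on a day of their own and on slides that held no other line. Replicates 1 and 2 of each divergent line were scanned in the earlier period and replicate 3 in the later. CC9mus can therefore not be told apart from its scan day and slides, and a block for the scan period does not separate them. By array, 60.3% to 97.3% of member probes had an IP signal well above background. The input signal of the 4 islands, which would follow copy number, stayed within −0.41 to 0.31 of its mean over the arrays on the log2 scale.

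The 4 islands lay near or below the middle of the array. The mean over the 12 arrays was 0.02 for the large Sox2 island, −0.10 for Klf4, −0.51 for Myc and −0.47 for the upstream Sox2 island. Among the 13463 islands with at least 3 probes, whose median was −0.05, these values stood at percentiles 54.8, 45.6, 16.4 and 18.6. Of the 73 probes, 10 were above 0 on all 12 arrays, against 22.3% of all probes, and 20 were below 0 on all 12, against 17.6%.

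**Figure D1:**
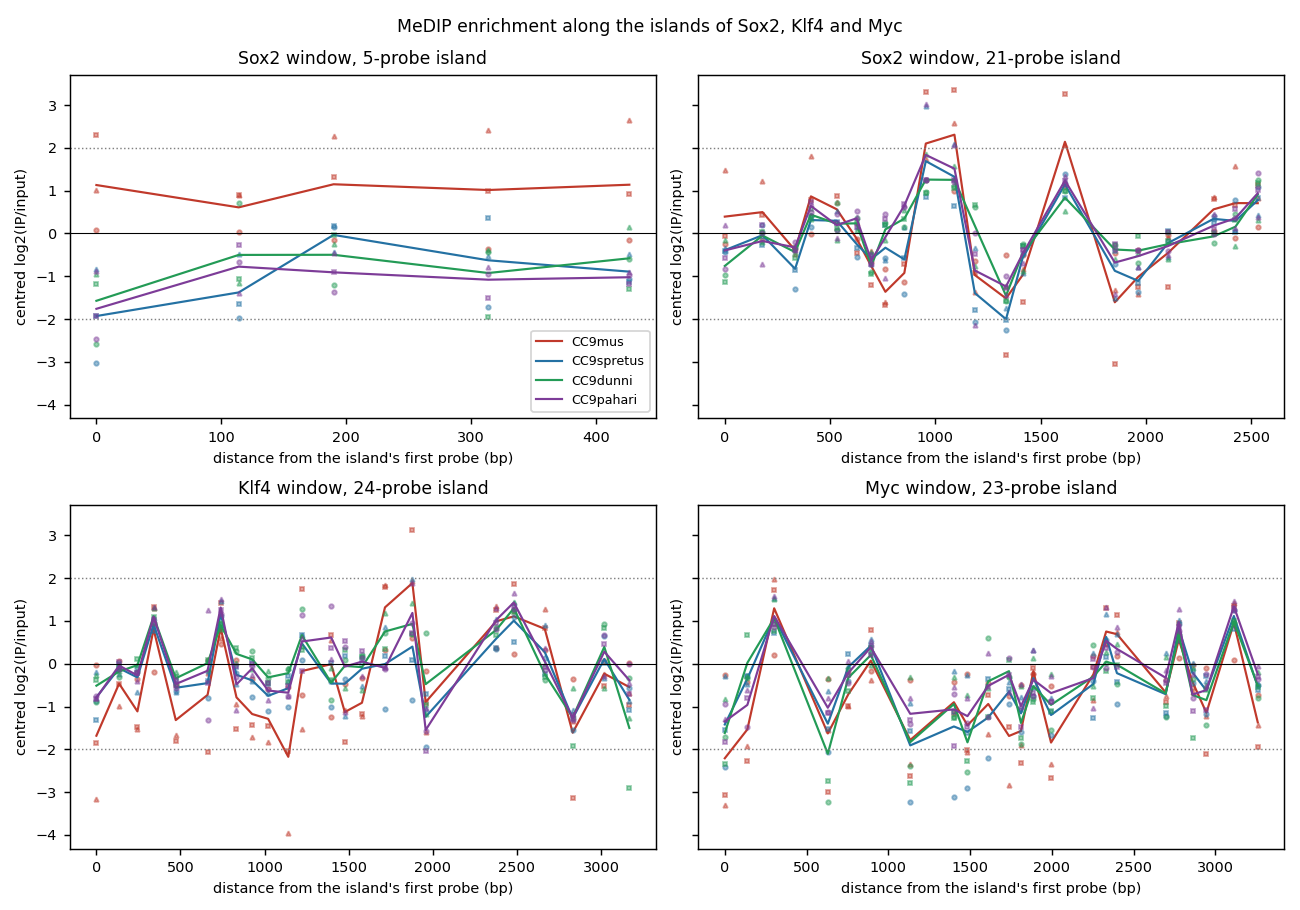
Centred log2(IP/input) along each of the 4 islands against the distance in bp from the first probe of the island. Points are arrays (circle, square and triangle for replicates 1, 2 and 3), lines join line means, and dotted lines mark 2 and −2. In the 3 larger islands the lines rose and dipped at many of the same probes, with exceptions such as the Klf4 probe at 1716 bp, whereas in the upstream Sox2 island the CC9mus line ran above 0 and the other 3 below.

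Sox2, whose protein pairs with Pou5f1 on the enhancers of pluripotency genes, had in its large island the most enriched probes of the set. The highest was A_68_P22049386 (chr3:34548677-34548721), 955 bp into the island. It read 1.26, 3.31 and 1.73 in CC9mus, 1.24, 0.86 and 2.97 in CC9spretus, 0.97, 0.95 and 1.85 in CC9dunni, and 1.25, 1.24 and 3.02 in CC9pahari. All 12 arrays were above 0 and the lines overlapped, with replicate 3 the highest in each divergent line. A_68_P22049387 (chr3:34548813-34548857), 1091 bp in, read 0.99, 3.35 and 2.59 in CC9mus and 0.64 to 2.08, with a median of 1.25, on the other 9 arrays. A_68_P22049391 (chr3:34549338-34549382), 1616 bp in, read 1.11, 3.26 and 2.06 in CC9mus and 0.52 to 1.38, with a median of 1.15, on the others. By the fixed threshold these 3 probes were hypermethylated in CC9mus, at 2.10 ± 1.08, 2.31 ± 1.21 and 2.14 ± 1.08 (SD, n = 3), and in no other line. Without CC9mus replicate 2, the highest array at each of them in that line, none of the 3 means was above 2. The same 3 probes differed from the mean of the divergent lines by 0.51 ± 0.56, 0.94 ± 0.46 and 1.07 ± 0.37 (SE), with adjusted p of 0.57, 0.19 and 0.093, and none passed the test. With the scan period as a block, which sets CC9mus against the later divergent arrays, the first difference turned to −0.51, the second fell to 0.40 and the third was 1.11. With arrays scaled to an equal spread the 3 differences were −0.029, 0.19 and 0.54, and with normexp background correction 0.82, 0.90 and 0.64. Without CC9mus replicate 1 those of A_68_P22049387 and A_68_P22049391 were 1.60 and 1.59 and passed the test (adjusted p = 0.0084 and 0.0034), and without CC9mus replicate 2 that of A_68_P22049391 was 0.51.

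Between these peaks lay the lowest probe of the island. A_68_P22049389 (chr3:34549058-34549109), 1336 bp in, read −0.50, −2.83 and −1.22 in CC9mus, −2.26, −2.01 and −1.73 in CC9spretus, −1.58, −1.57 and −1.22 in CC9dunni, and −0.99, −1.28 and −1.45 in CC9pahari. It was below 0 on all 12 arrays, and its CC9spretus mean lay just past the threshold and counted as hypomethylated. CC9mus and the divergent lines differed there by 0.05 ± 0.40 (SE, adjusted p = 0.95), and 1 of the 3 CC9mus arrays had no IP signal well above background there. The difference was −0.33 with normexp background correction and 0.65 with an equal spread.

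The shape of the larger islands was shared in part by the arrays. In the large Sox2 island the probe means over 12 arrays ran from −1.55 to 1.72 with an SD of 0.85, against a median SD of 0.35 between the 3 arrays of a line at 1 probe. The corresponding values were 0.75 and 0.42 for Klf4 and 0.84 and 0.49 for Myc. The median correlation of probe values between pairs of arrays was 0.75 in the large Sox2 island, 0.62 for Klf4 and 0.77 for Myc, over 66 pairs that share probe sequences. The lowest pairs were at 0.48, 0.075 and 0.36, each of them a CC9mus array with a divergent one. Pairs of 2 divergent arrays gave 0.75, 0.66 and 0.78, and pairs of a CC9mus array with a divergent one 0.73, 0.53 and 0.74. The upstream Sox2 island, with 5 probes, had no such shared shape (median 0.19, from −0.99 to 0.96).

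The upstream Sox2 island was where CC9mus stood apart. Its mean was −0.11, 1.29 and 1.85 on the 3 CC9mus arrays, −1.52, −0.84 and −0.55 in CC9spretus, −0.82, −1.11 and −0.52 in CC9dunni, and −1.28, −1.16 and −0.88 in CC9pahari. The 3 CC9mus arrays were above all 9 others, as in 3.61% of islands, but CC9mus replicate 1 was also below 0 and far from its 2 replicates. Line means were 1.01 ± 1.01 for CC9mus, −0.97 ± 0.50 for CC9spretus, −0.82 ± 0.29 for CC9dunni and −1.11 ± 0.20 for CC9pahari (SD, n = 3). The divergent lines overlapped one another, and the F test over the 3 lines did not pass (adjusted p = 1.00). The SD was largest in CC9mus, whereas the fit took 1 spread for all 4 lines, so that the SE, interval and p given next may be too small. CC9mus exceeded the mean of the divergent lines by 1.97 ± 0.36 (SE, 95% confidence interval 1.19 to 2.76), with an adjusted p of 0.051 over all islands, just short of the threshold. No island of the array passed in this comparison, 0% of 14580 after adjustment, and 2 of the 4 member islands, this one and Klf4, had an unadjusted p under 0.05, against 32.3% of all islands. Over the 4 lines 1 of the 4 did, the upstream Sox2 island, against 14.1%. The difference of the upstream Sox2 island stood at percentile 99.3 of those of islands with at least 3 probes. Against CC9mus alone, CC9spretus differed by −1.98 ± 0.44, CC9dunni by −1.82 ± 0.44 and CC9pahari by −2.12 ± 0.44 (SE), with adjusted p of 0.20, 0.13 and 0.12.

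**Figure D2:**
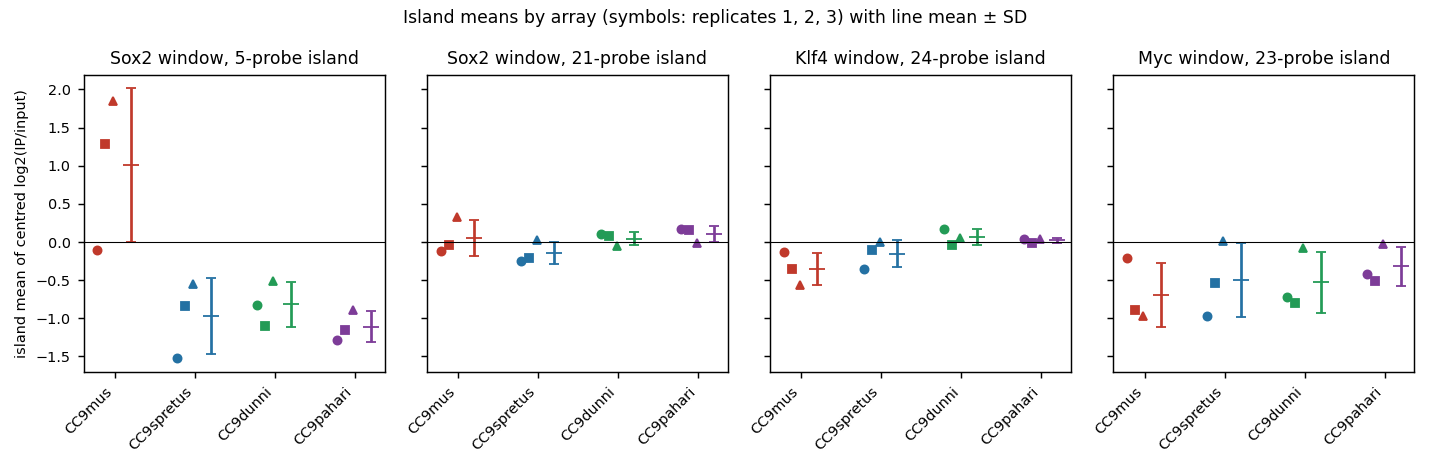
Mean of centred log2(IP/input) over the probes of each island, by line. Symbols are arrays (circle, square and triangle for replicates 1, 2 and 3) and bars the line mean ± SD. In the upstream Sox2 island the CC9mus arrays at −0.11, 1.29 and 1.85 lie above the 9 others, which run from −1.52 to −0.52. In the Klf4 island the CC9mus arrays lie below all CC9dunni and CC9pahari arrays and overlap with CC9spretus only. In the large Sox2 and Myc islands the lines overlap.

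All 5 probes of the upstream Sox2 island had a higher mean in CC9mus, against 46.8% of all probes, and 2 of them were the members that passed the test. Over all probes, 4056 (4.57%) passed in this comparison, of which 2453 (2.76% of all probes) were higher in CC9mus, so that 2 of 73 is no more than the share of the array. A_68_P22049315 (chr3:34540865-34540916), the first probe, read 0.08, 2.31 and 1.01 in CC9mus, −3.02, −1.93 and −0.83 in CC9spretus, −2.59, −1.18 and −0.95 in CC9dunni, and −2.46, −1.94 and −0.88 in CC9pahari. The CC9mus arrays did not overlap with any other, the only member probe for which this held, against 3.78% of all probes, and 0 member probes had all CC9mus arrays below all others, against 3.41%. The difference was 2.89 ± 0.57 (SE, 95% confidence interval 1.64 to 4.14, adjusted p = 0.041). IP signal was well above background on only 3 of the 9 divergent arrays, so that the size is not exact. It was 2.02 with the dim IP values left out (adjusted p = 0.11) and with the scan period as a block (adjusted p = 0.17). With normexp background correction it was 0.53 (adjusted p = 0.25). With the slide as a random block no member probe passed (smallest adjusted p = 0.065).

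A_68_P22049319 (chr3:34541292-34541337), the last probe, read −0.16, 0.92 and 2.66 in CC9mus, −1.06, −1.13 and −0.49 in CC9spretus, −0.59, −1.30 and 0.15 in CC9dunni, and −0.98, −1.18 and −0.91 in CC9pahari. CC9mus replicate 1 overlapped with CC9dunni replicate 3. The SD was 1.43 in CC9mus and 0.14 to 0.73 in the divergent lines, whereas the fit took 1 spread for all. The difference was 1.97 ± 0.49 (SE, adjusted p = 0.046). It was 1.69 with the dim IP values left out (adjusted p = 0.14), 1.55 with the scan period as a block (adjusted p = 0.20) and 0.71 with normexp (adjusted p = 0.19). The 3 probes between them differed by 1.49 ± 0.46, 1.63 ± 0.45 and 1.89 ± 0.58 (SE), with adjusted p of 0.071, 0.056 and 0.069. With normexp these were 0.38, 0.39 and 0.40, and without CC9mus replicate 3 the middle one was 1.06, with the last also over 1.5 times lower. A_68_P22049317, the middle one, passed without centring (adjusted p = 0.0496) and with the replicate number as a block (adjusted p = 0.038).

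**Figure D3:**
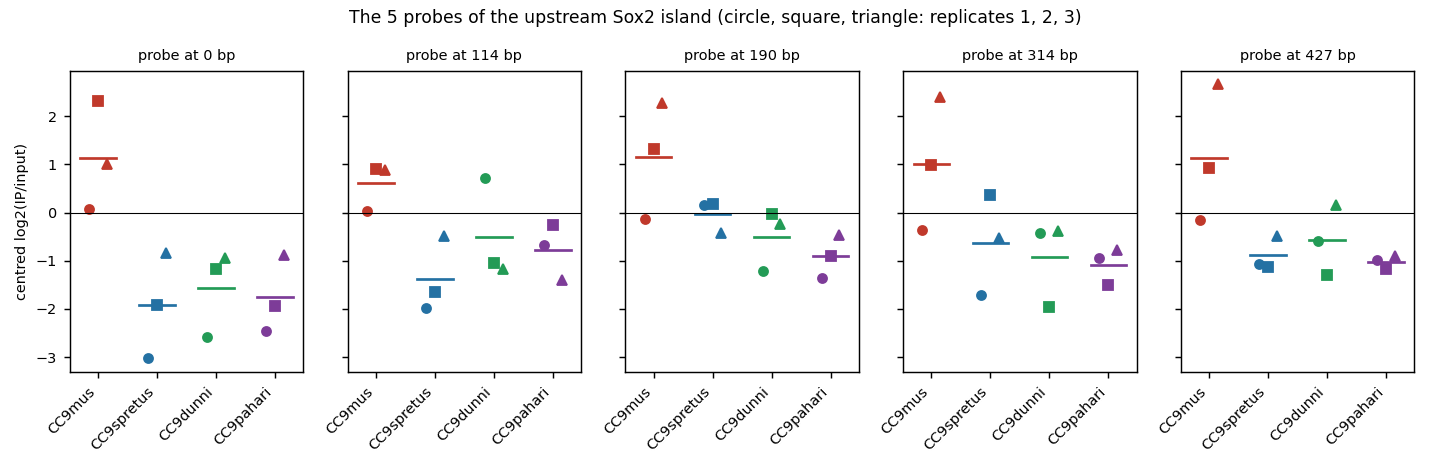
Centred log2(IP/input) of the 5 probes of the upstream Sox2 island, each panel a probe at the stated distance in bp from the first, by line. Symbols are arrays and bars line means. Replicates 2 and 3 of CC9mus lie at 0.89 or above at each probe, and replicate 1 between −0.36 and 0.08.

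The signal behind these values was weak, most of all in the divergent lines. The median IP signal of the 5 probes was 244.7, 480.6 and 856.9 units on the CC9mus arrays. It was 48.7, 136.6 and 212.9 in CC9spretus, 74.1, 125.2 and 237.6 in CC9dunni, and 69.2, 96.9 and 188.8 in CC9pahari. Input signal ran from 281.0 to 393.2 units on the CC9mus arrays and on the 3 later divergent arrays from 341.2 to 386.6, against 138.6 to 213.7 on the 6 earlier ones. IP signal was well above background at 80.0% of probe values in CC9mus and 31.1% in the divergent lines, and at 0 of 5 probes on CC9dunni and CC9pahari replicates 1 and 2. At A_68_P22049315 it was above background on all 3 CC9mus arrays but on only 1 array of each divergent line, replicate 3, which read −0.83, −0.95 and −0.88. At A_68_P22049319 the numbers were 3 arrays in CC9mus and CC9spretus and 1 in each of CC9dunni and CC9pahari. At A_68_P22049316, the second probe, IP signal was not well above background on any divergent array, and input signal on only 1 array of CC9dunni and of CC9pahari, and in CC9mus IP signal was above it on 1 array and input on 2. The ratio of that probe, and with it its difference of 1.49, is therefore not bounded on either side. At A_68_P22049317, the third, IP signal was well above background on 2 CC9mus arrays, 1 array each of CC9spretus and CC9dunni and no CC9pahari array.

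**Figure D4:**
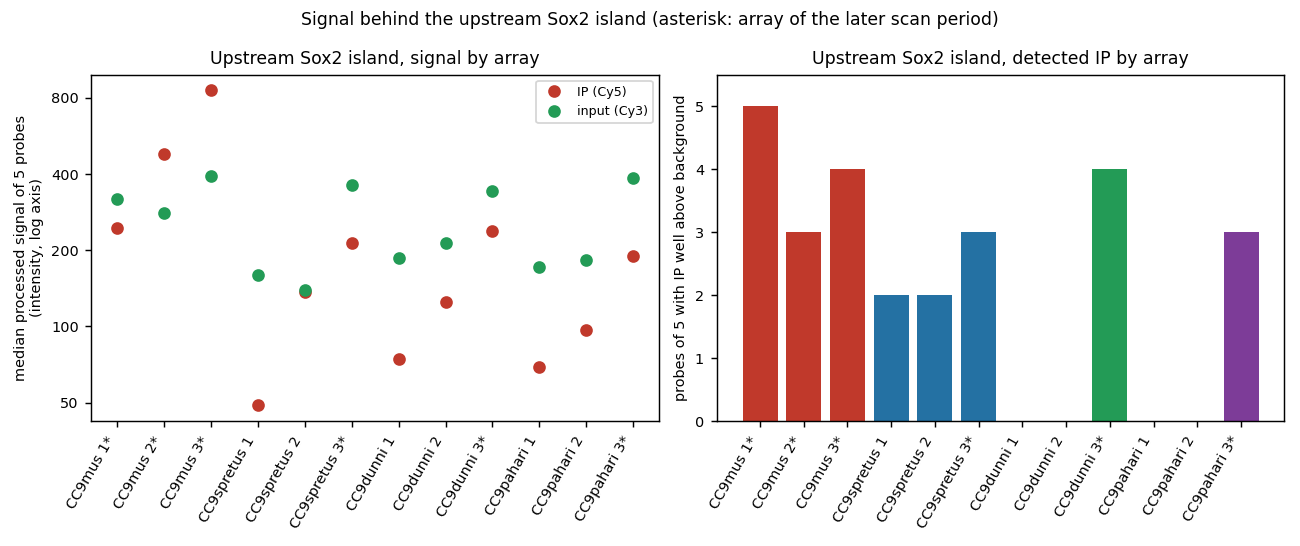
Left, median processed signal of the 5 upstream Sox2 probes in each channel on a log axis. Right, number of the 5 probes with IP signal well above background, by array, with an asterisk for the later scan period. IP exceeded input on CC9mus replicates 2 and 3 only, and the earlier CC9dunni and CC9pahari arrays had 0 of 5 probes above background.

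The size and the call of the upstream Sox2 difference moved with how dim signals were treated. With normexp background correction the island mean was −0.30, 0.94 and 1.01 on the CC9mus arrays and −0.03 to 0.20 on the others, CC9mus replicate 1 became the lowest array, and the difference fell to 0.48 (adjusted p = 0.21). Within the later scan period, where CC9mus met 1 array of each divergent line, it was 1.66 (adjusted p = 0.38). Without CC9mus replicate 1 it was 2.53 and all 5 probes passed the test, and without any other array neither A_68_P22049315 nor A_68_P22049319 passed. With each divergent array left out in turn their differences stayed at 2.70 to 3.07 and 1.85 to 2.09, in fits where at most 1 of all 88737 probes passed. Without CC9mus replicate 2 they were 2.30 and 2.08, and without CC9mus replicate 3 2.95 and 1.21. The part of the dim signal, the spread of the arrays and the scan period in this difference was not tested further. Scan day and slide cannot be told apart from line here, as the CC9mus arrays shared neither with another line.

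Klf4, a zinc finger factor that promotes self-renewal of ES cells, had an island of mixed values. Its highest probe, A_68_P22934435 (chr4:55545469-55545513), 2482 bp into the island, read 0.23, 1.86 and 1.23 in CC9mus and 0.51 to 1.66, with a median of 1.29, on the other 9 arrays. Its lowest, A_68_P22934437 (chr4:55545819-55545863), 2832 bp in, read −0.37, −3.14 and −1.33 in CC9mus and −1.93 to −0.57, with a median of −1.26, on the others. The first was above 0 and the second below 0 on all 12 arrays, and the differences between CC9mus and the divergent lines, of −0.14 ± 0.33 and −0.35 ± 0.48 (SE, adjusted p = 0.81 and 0.66), did not pass the test. At the lowest probe 1 of the 3 CC9mus arrays had no IP signal well above background, and the difference turned to 0.32 with an equal spread and 0.42 with the dim IP values left out, and was −0.97 without CC9mus replicate 1. At the highest probe it turned to 0.30 without CC9mus replicate 1 and was −0.68 with an equal spread and −0.40 with the scan period as a block.

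CC9mus was lower than the mean of the divergent lines at 17 of the 24 Klf4 probes and higher at 7 (29.2%, against 46.8% of all probes). The median difference was −0.42, against −0.06 over all probes, and neighbouring probes share DNA. The island mean was −0.14, −0.36 and −0.56 on the CC9mus arrays and −0.35 to 0.17 on the others. The CC9mus arrays lay below all CC9dunni and CC9pahari arrays and overlapped with CC9spretus only. CC9dunni and CC9pahari differed from CC9mus by 0.42 ± 0.18 and 0.38 ± 0.18 (SE, adjusted p = 0.19 and 0.20). The island's difference between CC9mus and the mean of the divergent lines, −0.33 ± 0.14 (SE), had an unadjusted p of 0.042 and an adjusted p of 0.14. It was −0.55 with the median in place of the mean of the probes (adjusted p = 0.12) and −0.44 without CC9mus replicate 1, when it passed the test (adjusted p = 0.027). The probe with the smallest p over the 4 lines was A_68_P22934422 (chr4:55543913-55543962), at −0.36, −1.44 and −1.72 in CC9mus and −0.79 to 0.30, with a median of −0.06, on the others. Its difference was −1.04 ± 0.31 (SE, adjusted p = 0.065), and −0.65 with an equal spread, when it passed the test (adjusted p = 0.047). Without CC9mus replicate 1 it was −1.45 and passed too (adjusted p = 0.0022), in a fit where 40.4% of all probes passed. A_68_P22934424 (chr4:55544128-55544172) read −0.53, −2.04 and −3.95 in CC9mus and below 0 on all the others, and was the 1 Klf4 probe past the threshold, at −2.17 ± 1.71 (SD, n = 3) in CC9mus. Its difference of −1.69 ± 0.52 (SE, adjusted p = 0.072) did not pass the test. It fell to −0.80 without CC9mus replicate 3, when the CC9mus mean was no longer past the threshold, and was −0.61 with normexp and −0.89 with an equal spread, when it passed the test (adjusted p = 0.030). Without CC9mus replicate 1 it was −2.51 and passed the test (adjusted p = 0.0014). Of the 3 CC9mus arrays, 2 lay outside the range of the others. At 1716 bp into the island the sign was the other way. A probe there read 0.32, 1.78 and 1.85 in CC9mus and −1.06 to 1.18 on the others, and the difference did not pass the test (adjusted p = 0.12).

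Myc, which amplifies the transcription of growth genes, had the least enriched of the 3 large islands, with 9 of 23 probes below 0 and 3 above 0 on all 12 arrays. The highest probe, A_68_P30267513 (chr15:61816737-61816781), 302 bp into the island, read 0.20, 1.72 and 1.97 in CC9mus and 0.72 to 1.57, with a median of 0.92, on the others. The lowest, A_68_P30267520 (chr15:61817569-61817623), 1134 bp in, read −0.39, −2.63 and −2.33 in CC9mus, −3.23, −1.57 and −0.91 in CC9spretus, −2.38, −2.79 and −0.32 in CC9dunni, and −1.40, −1.30 and −0.80 in CC9pahari. In each divergent line replicate 3, the later array, was the nearest to 0, and CC9mus replicate 1 was the nearest to 0 in its line. IP signal there was well above background on only 1 of the 3 CC9mus arrays and 1 of the 3 CC9dunni arrays, so that the low values of the other 4 are not exact, nor is the rank of the probe as lowest.

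The remaining Myc probes past the threshold were also low. A_68_P30267511 (chr15:61816435-61816487), the first probe of the island, was at −2.21 ± 1.69 (SD, n = 3) in CC9mus and at −1.62 ± 0.76 to −1.35 ± 0.45 in the divergent lines. Only 1 CC9mus array, 1 CC9dunni array and no CC9pahari array had IP signal well above background there. A_68_P30267515 (chr15:61817065-61817121) was at −2.10 ± 1.55 in CC9dunni (−3.23, −2.75 and −0.33), and only 1 of those 3 arrays had IP signal well above background there. Their differences between CC9mus and the divergent lines, of −0.75 ± 0.63 and −0.12 ± 0.62 (SE, adjusted p = 0.45 and 0.92), did not pass the test. The first turned to 0.19 with normexp, and with an equal spread they turned to 0.27 and 0.53. With the scan period as a block they were −1.41 and −1.04, and without CC9mus replicate 1 −1.72 and −0.76, the first of which passed the test (adjusted p = 0.021). A_68_P30267525 (chr15:61818173-61818217) had the smallest p over the 4 lines, at −0.76, −1.47 and −2.83 in CC9mus and −0.93 to 0.15, with a median of −0.32, on the others, a difference of −1.33 ± 0.38 (SE, adjusted p = 0.060). This fell to −0.76 without CC9mus replicate 3 and to −0.64 with normexp, and was −0.88 with an equal spread, when it passed the test (adjusted p = 0.040). Without CC9mus replicate 1 it was −1.79 and passed the test (adjusted p = 0.0032). In CC9mus and in CC9dunni 2 of 3 arrays had IP signal well above background, and in the other lines all did.

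The Myc island mean was −0.21, −0.90 and −0.97 on the CC9mus arrays. It was −0.97, −0.54 and 0.01 in CC9spretus, −0.72, −0.80 and −0.07 in CC9dunni, and −0.42, −0.52 and −0.03 in CC9pahari. All 6 earlier divergent arrays were below all 3 later ones. The 3 CC9mus arrays, scanned later too, also lay below the 3 later divergent arrays. The difference between CC9mus and the divergent lines was −0.24 ± 0.26 (SE, adjusted p = 0.52), and −0.66 with the scan period as a block (adjusted p = 0.12). It was −0.011 with an equal spread and −0.14 with normexp, and −0.48 without CC9mus replicate 1, −0.14 without replicate 2 and −0.11 without replicate 3. Without CC9spretus replicate 3 it was −0.16. The large Sox2 island was at −0.12, −0.03 and 0.32 on the CC9mus arrays and −0.26 to 0.18 on the others. Its difference of 0.05 ± 0.15 (SE, adjusted p = 0.81, 95% confidence interval −0.27 to 0.37) did not pass the test and turned to −0.017 without centring and to −0.035 with arrays scaled to an equal spread.

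**Figure D5:**
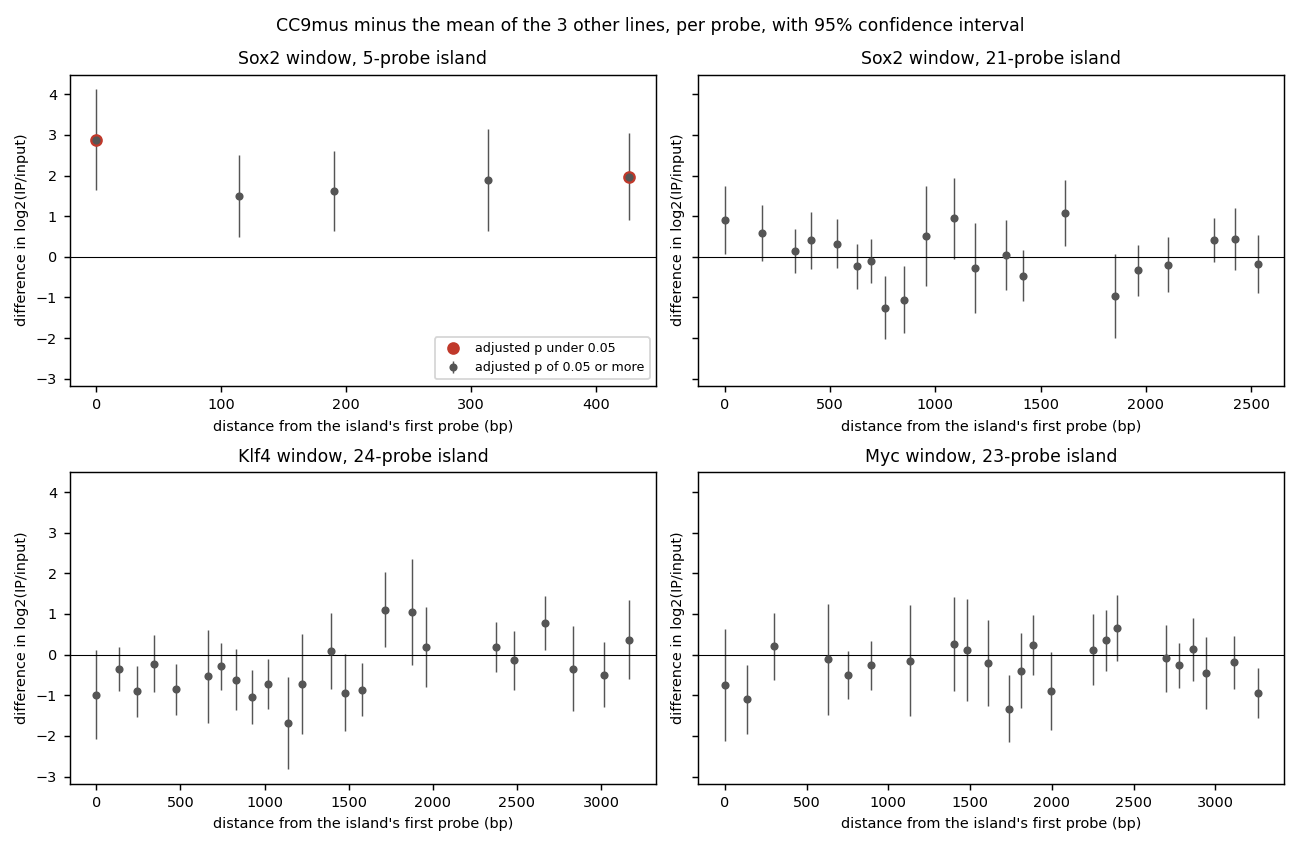
Difference in log2(IP/input) between CC9mus and the mean of the 3 divergent lines at each probe, with its 95% confidence interval, against the distance in bp from the first probe of the island. Red marks the 2 probes with an adjusted p under 0.05, at 2.89 and 1.97, both in the upstream Sox2 island, where all 5 differences are above 0. The other islands hold differences of both signs.

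In the 3 larger islands CC9mus replicates 2 and 3 were further from 0 in both directions. The probes were split by the sign of their mean over the 9 divergent arrays, so that CC9mus took no part in the choice. The 25 probes above 0 had a median of 1.26 on both of those arrays, 0.15 on CC9mus replicate 1 and 0.38 to 0.91 on the divergent arrays. The 43 probes below 0 had medians of −1.47 and −1.31 on CC9mus replicates 2 and 3, −0.37 on CC9mus replicate 1 and −0.79 to −0.32 on the divergent arrays. The SD of the whole array was likewise highest on CC9mus replicates 2 and 3 and lowest on replicate 1, and its part in the differences was not tested.

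Across the set, 20 of 73 probes (27.4%) had an unadjusted p under 0.05 between CC9mus and the mean of the divergent lines, against 28.9% of all probes. For each divergent line against CC9mus, 0 of 73 probes passed adjustment, as did 0% of all probes. Unadjusted, the count was 12 for CC9spretus (background 17.1%), 19 for CC9dunni (23.4%) and 15 for CC9pahari (20.7%). These 3 comparisons share the CC9mus arrays. The F test over the 4 lines gave 0 after adjustment and 13 unadjusted (13.6% of all probes). Among the 3 divergent lines it gave 0 after adjustment and 1 unadjusted (1.5% of all probes), A_68_P22049385 of the large Sox2 island at −0.61 in CC9spretus, 0.35 in CC9dunni and 0.65 in CC9pahari (adjusted p = 1.00). One CC9mus value of that probe was marked as an outlier by the scanner software and left out. By the fixed threshold, which involves no test, 7 of 73 probes (9.59%) were past it in at least 1 line, against 15.2% of all probes, 3 of them upwards and 4 downwards. By line, CC9mus had 3 probes above 2 (9.39% of all probes) and 2 below −2 (3.25%). CC9spretus had 0 above (5.16%) and 1 below (1.08%), CC9dunni 0 above (5.32%) and 1 below (0.586%), and CC9pahari 0 above (4.71%) and 0 below (0.124%). None was past the threshold on all 3 arrays of a line, against 4.85% of all probes.

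The islands of the array whose mean followed that of a member island most closely over the 12 arrays were given by Pearson's r among islands with at least 3 probes. For the large Sox2 island it was chr13:115247398-115250017 (13 probes, r = 0.86), and no island exceeded 0.9. For Klf4 it was chr3:90237174-90237753 (5 probes, r = 0.98), 1 of 103 islands above 0.9, and for Myc chr3:106524469-106525470 (9 probes, r = 0.99), 1 of 273 islands above 0.9. The arrays share their overall spread and scan period, and with arrays scaled to an equal spread the same pairs gave 0.87, 0.72 and 0.94. The upstream Sox2 island, looked up after its values were seen, was closest to chr9:58094745-58095089 (4 probes, r = 0.99, and 0.97 with an equal spread), 1 of 659 islands above 0.9. That island was at 1.26 in CC9mus and −0.64 on the other 9 arrays, so that the pattern of the upstream Sox2 island over the arrays was shared by many islands. The other genes of the pluripotency network were not analysed here, because no gene names stand beside the probes in the files used.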

How the data were processed

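MeDIP DNA of CC9mus, CC9spretus, CC9dunni and CC9pahari cells, with 3 replicates per line, was hybridised by the authors to Agilent 2-colour CpG island arrays, IP in Cy5 and input in Cy3, and lines were taken from the sample titles. The deposited files hold processed signals in units of intensity, made by the authors with Agilent Feature Extraction 11.0.1.1 (background subtraction, detrending and linear dye normalisation, where a signal below its own error is set to a small positive surrogate). Log10 ratios deposited with them, IP over input, served as an alternative only. Probe positions were on build mm9, and 416 probes had none.

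log2(IP/input) was computed per probe, outlier-marked spots were left out (1 of 876 member values), and the median of each array was set to 0, with no loess or quantile step. Line means of 12 arrays were fitted with lmFit and eBayes of limma 3.58.1 under R 4.3.3, for 88737 probes and for 14580 island means. The fit was also run on simulated data with known shifts and with noise drawn independently for each probe. That run checked only that the shifts were recovered and does not bear on the calls made on these arrays. The number of arrays, 3 per line, limits the precision. Member windows, islands and gene lists were chosen with earlier results of these data known. Probes were named where they had the highest or lowest mean of a window, the smallest F test p, an adjusted p under 0.05 or a line mean past the threshold (up to 5 each). The probes of the upstream Sox2 island and those at 1716 bp of Klf4 and A_68_P22049385 were added after their values were seen. Alternatives were no centring, normexp (offset 50), deposited ratios, equal median absolute deviation, dim input left out, blocks for replicate number, slide and scan period, single scan periods, arrays left out in turn, island medians and gaps of 500 and 2000 bp. Leaving out dim IP values was chosen after seeing the data. Python 3.11.15, numpy 2.4.6, pandas 2.3.3 and matplotlib 3.10.9 were used.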

Additional observations from a re-analysis of the deposited data

How the results depend on the processing

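Of the 73 member probes, 2 differed between CC9mus and the mean of the divergent lines. Percentages in brackets are the share of all probes or islands that passed in the same fit. The count was 0 with normexp background correction (0.027%) and with dim IP values left out (62 probes tested, 1.78%). It was also 0 with the slide as a random block, with the scan period as a block and within the later scan period (0% in each). It was 6 with equal spread (12.1%) and 13 with the scan period as a block and equal spread (21.4%), of which 2 and 1 were higher in CC9mus. With the replicate block it was 4 (8.42%). It ranged from 0 to 30 with each array left out, 30 (14 higher and 16 lower) without CC9mus replicate 1, when 40.4% of all probes passed, and 0 without any other array (at most 0.14%). For CC9spretus, CC9dunni and CC9pahari against CC9mus the count was 0, and 2, 10 and 12 with the scan period as a block and equal spread (7.86%, 19.5% and 14.6%). It was 3 for CC9dunni (9.16%) and 1 for CC9pahari (3.95%) with equal spread, 1 for CC9dunni with the replicate block (1.18%), and ranged from 0 to 23, 24 and 20 with each array left out, the highest without CC9mus replicate 1 (27.0%, 34.0% and 31.7%). Over the 4 lines it was 0, and 3 with the scan period as a block and equal spread (9.65%), and 0 to 16 with each array left out (21.6% for the highest, without CC9mus replicate 1). Among the divergent lines it was 0 under every alternative run.

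The count of member islands between CC9mus and the divergent lines was 0. It was 1, the upstream Sox2 island, without centring (7.9%), with equal spread (13.8%), with dim input left out (4.97%) and with the replicate block (7.96%), 2 with the scan period as a block and equal spread (30.0%), and 0 to 2 with each array left out (50.3% without CC9mus replicate 1). Over the 4 lines it was 1 with equal spread (1.49%) and with the scan period as a block and equal spread (15.2%), and 0 to 1 with each array left out (32.8% without CC9mus replicate 1). The upstream Sox2 difference stayed above 0 throughout, from 0.48 to 2.53. That of the large Sox2 island reversed to −0.017 without centring, −0.035 with equal spread and −0.011 with the scan period as a block and equal spread, and ranged from −0.078 (without CC9mus replicate 3) to 0.14 (without CC9mus replicate 1) with each array left out. The 7 probes past the threshold became 0 with normexp and with the threshold on every array of a line, 2 with equal spread and 3 to 17 with each array left out (17 without CC9mus replicate 1, 3 without CC9mus replicate 2 and 11 without CC9spretus replicate 3). The causes were not tested.

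Replicate numbers did not pair the samples throughout. The deviations of same-numbered arrays correlated at 0.12 to 0.54 among the divergent lines but at −0.38 to 0.19 with CC9mus, so that no number pairs all 4 lines. Among the divergent lines the number goes with the scan period, replicates 1 and 2 being of the earlier and replicate 3 of the later, whereas all CC9mus arrays are of the later. The replicate block changed no calls but those given. Not centring moved the median difference of all probes between CC9mus and the divergent lines from −0.06 to −0.13. Each line had 3 arrays, and CC9mus was not scanned in the earlier period. Dim IP signal limits what the upstream Sox2 island can show.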
